A study of Mus musculus with 30 samples.

Results

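The genes described here make, release and sense glucose in the liver: Pck1, Pck2, G6pc, Slc37a4, Fbp1, Pcx, Ppargc1a, Gckr and Slc2a2. They were chosen by name, and each was read from every probe set that the annotation of the array pairs with that gene alone. This gave 10 probe sets for 9 genes, with 2 probe sets for Ppargc1a, of 35556 probe sets on the array, of which 21218 carried exactly 1 symbol and covered 18820 genes. Values are log2 intensities after RMA (robust multi-array average), so a difference of 1 is a 2-fold difference.

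The study asked how the transcription factors PPARα and CREB3L3 act on liver genes, alone and together, in male mice of about 8 weeks. Livers were taken after a 16 h fast or after 4 days on a ketogenic diet (Bio-Serv F3666, eaten freely), from wild-type C57BL/6 mice and from mice lacking PPARα (PPARα-/-), CREB3L3 (CREB3L3-/-) or both (combined PPARα/CREB3L3-/-). Each genotype and regimen had 4 livers, except for 3 in both PPARα-/- groups, with 1 array per liver and 30 arrays in all. Both deletions were present in the whole body. The PPARα-/- line (B6;129S4-Pparatm1Gonz/J) had been backcrossed to C57Bl/6J, the CREB3L3-/- line to C57BL/6, and the combined line came from interbreeding these lines. The regimens differed in food intake, diet and duration together, and no chow-fed liver was analysed here.

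Between meals the liver supplies glucose from glycogen and by gluconeogenesis, the building of glucose from lactate, glycerol and amino acids. Pyruvate carboxylase, encoded by Pcx, makes oxaloacetate in mitochondria. Phosphoenolpyruvate carboxykinase, cytosolic (Pck1) or mitochondrial (Pck2), turns oxaloacetate into phosphoenolpyruvate, and fructose-1,6-bisphosphatase (Fbp1) acts further along the path. The last step, shared with glycogen breakdown, is the release of glucose from glucose 6-phosphate by glucose-6-phosphatase (G6pc) in the endoplasmic reticulum, which the transporter encoded by Slc37a4 supplies with its substrate. GLUT2 (Slc2a2) carries glucose across the hepatocyte membrane in both directions, and the glucokinase regulatory protein (Gckr) holds glucokinase inactive in the nucleus when glucose is low. Ppargc1a encodes PGC-1α, a coactivator of transcription that is induced by fasting, and CREB3L3 is a membrane-bound factor of the CREB family that is cleaved and enters the nucleus.

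The promoters of 4 members are shown. Of these, Pck1, G6pc and Slc37a4 fell in the CREB3L3-/- livers on the ketogenic diet and Pck2 rose. Fbp1, Pcx, Gckr and Slc2a2 fell there too, so the printed windows do not cover all the genes that fell. The RefSeq table (GRCm38.p6) held 12 windows for the 9 genes, and the 250 bases before the start were searched on both strands for 5 strings. These were the cAMP response element TGACGTCA and its shorter form TGACG, which lies within it, the DR1 bound by PPARα with RXR (AGGTCA repeated after any 1 base), the FOXO core GTAAACA, and CAAAACA of insulin response sequences. All windows below are on the plus strand and run 5′ to 3′, with the match in capitals: chr2:173152823-173153072 for Pck1, chr11:101367466-101367715 for G6pc, chr9:44396849-44397098 for Slc37a4 and chr14:55540016-55540265 for Pck2.
Pck1: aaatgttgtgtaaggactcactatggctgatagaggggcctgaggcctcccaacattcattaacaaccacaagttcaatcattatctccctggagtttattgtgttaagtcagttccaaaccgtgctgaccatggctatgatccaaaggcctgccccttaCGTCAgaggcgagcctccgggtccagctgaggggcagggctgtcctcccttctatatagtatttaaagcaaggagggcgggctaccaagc
G6pc: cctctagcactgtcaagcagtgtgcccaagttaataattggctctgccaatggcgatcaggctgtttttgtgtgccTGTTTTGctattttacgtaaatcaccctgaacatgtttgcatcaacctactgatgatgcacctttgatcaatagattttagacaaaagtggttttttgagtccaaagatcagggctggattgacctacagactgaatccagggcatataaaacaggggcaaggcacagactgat
Slc37a4: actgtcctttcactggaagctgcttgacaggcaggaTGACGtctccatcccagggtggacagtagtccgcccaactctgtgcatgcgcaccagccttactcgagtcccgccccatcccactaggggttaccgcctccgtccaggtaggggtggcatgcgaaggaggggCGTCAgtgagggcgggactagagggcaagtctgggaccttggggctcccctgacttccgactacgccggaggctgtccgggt
Pck2: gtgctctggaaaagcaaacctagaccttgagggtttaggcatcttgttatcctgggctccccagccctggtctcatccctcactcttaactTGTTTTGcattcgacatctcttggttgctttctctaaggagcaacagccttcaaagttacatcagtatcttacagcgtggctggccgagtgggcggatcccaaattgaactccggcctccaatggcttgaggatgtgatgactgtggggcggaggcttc

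TGACG was found at -90 to -86 from the start of Pck1 on the minus strand. Slc37a4 held it at -214 to -210 on the plus strand and at -82 to -78 on the minus strand of the window shown. A further Slc37a4 start, with a window from 44396696 to 44396945, held the first of these same bases at -61 to -57. Ppargc1a held it at -49 to -45 on the minus strand. The string was present in 17.8% of all 32851 windows. CAAAACA was found on the minus strand at -174 to -168 of G6pc, at -159 to -153 of Pck2 and at -83 to -77 of Gckr, against 5.56% of all windows. The whole element TGACGTCA (1.55% of all windows), DR1 (0.0335%) and GTAAACA (3.17%) were in none of the 12 windows. None of the strings was in the windows of Fbp1, Pcx or Slc2a2, or in the remaining Slc37a4 window from 44398104 to 44398353. These matches are descriptions of letters within these windows and not of binding.

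The arrays were alike in overall signal, with medians from 4.22 to 4.38 on the log2 scale and correlations of 0.978 to 0.990 within groups. Creb3l3 lay between 4.29 and 5.36 in every liver labelled CREB3L3-/- or PPARα/CREB3L3-/-, against 9.49 to 11.28 in the others. The Ppara probe set still gave 6.62 to 9.35 in livers labelled PPARα-/- or PPARα/CREB3L3-/-, against 10.08 to 10.54 in wild-type livers, and does not check the deletion on its own. The hepatocyte markers were high in every ketogenic group, none of the 9 having a mean below the array median. On the diet their summed level was 15.98 to 16.08 in wild-type livers, 15.66 to 15.69 in PPARα-/- livers, 15.46 to 15.71 in CREB3L3-/- livers and 15.69 to 15.84 in combined knockout livers.

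Across the 8 groups, 9 of the 10 probe sets had their lowest mean in the CREB3L3-/- livers on the ketogenic diet. Pck2 was the exception, with its highest mean there and its lowest in fasted wild-type livers. The group means of a probe set ranged over 1.45 (Ppargc1a, probe set 10529979) to 2.68 (G6pc) on the log2 scale. The lowest group lay wholly below the next group for Pck1, Slc37a4, Fbp1, Pcx and Gckr, and overlapped the next one for G6pc, Slc2a2 and both Ppargc1a probe sets. The highest group of Pck2 lay wholly above the next. Neighbours in the order of Pck1 overlapped from fasted PPARα-/- (12.74) through ketogenic and fasted wild-type (12.55 and 12.52), fasted combined knockout (12.44) and ketogenic PPARα-/- (12.29). Those of Slc37a4 overlapped from ketogenic combined knockout (10.90) down to fasted CREB3L3-/- (10.25). For both Ppargc1a probe sets every neighbouring pair of groups overlapped.

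**Figure D1:**
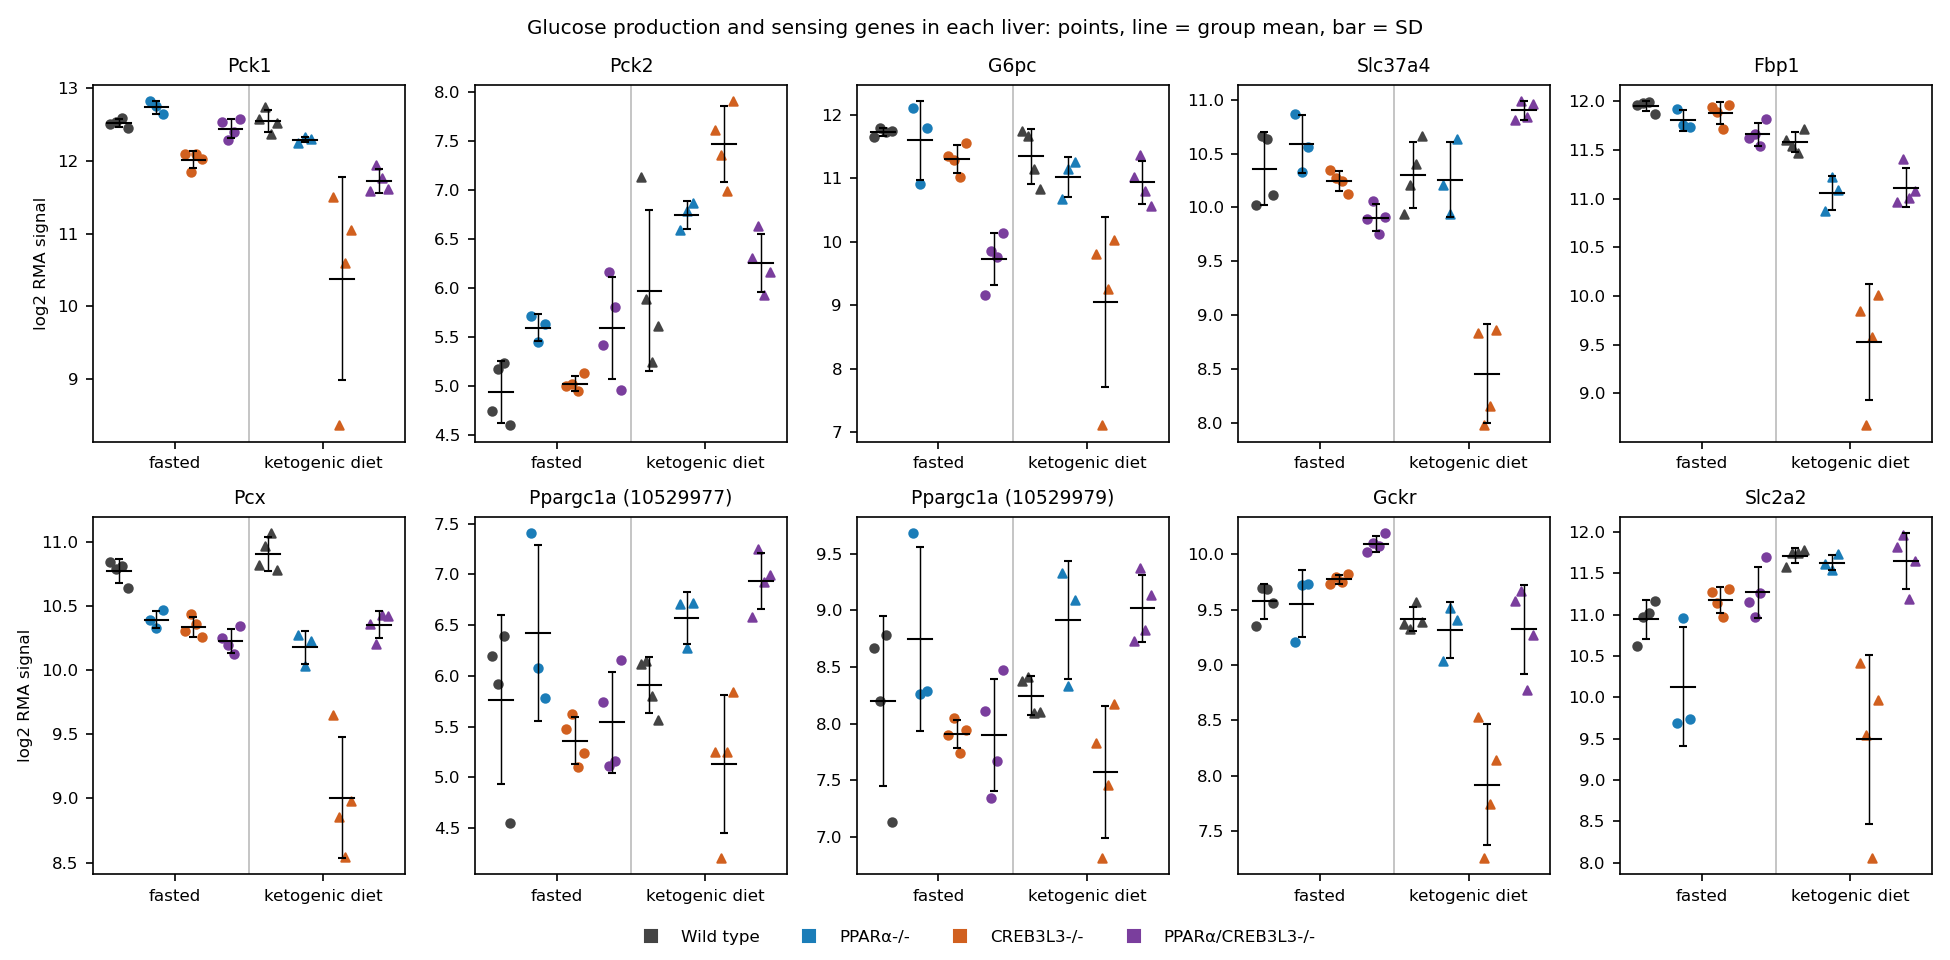
log2 RMA intensity of each member probe set in the 30 livers, with 1 panel per probe set, groups along the horizontal axis, points for single livers, horizontal lines for group means and bars for the SD. The CREB3L3-/- livers on the ketogenic diet hold the lowest mean of every panel but that of Pck2, where they hold the highest, at 7.47.

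The comparison of CREB3L3-/- with wild-type livers on the ketogenic diet asked what the loss of CREB3L3 does while PPARα is present. Present means not deleted, here and below. The Ppara probe set gave 8.01 to 8.99 in these CREB3L3-/- livers, below the 10.37 to 10.54 of wild-type livers on the diet. The part of this lower level in the changes below was not tested. In this comparison 7 of the 10 probe sets fell and 1 rose (limma, P under 0.001 and a fold beyond 1.2). Of all probe sets 8.56% fell and 12.8% rose. The median change of the 10 was -1.87 on the log2 scale, and that of all probe sets -0.06. In whole liver, fewer hepatocytes and less RNA per hepatocyte cannot be told apart.

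The carboxylase and the carboxykinases of the first steps parted. Pcx had 10.82, 10.97, 11.07 and 10.78 in the 4 wild-type livers and 9.65, 8.85, 8.54 and 8.98 in the 4 CREB3L3-/- livers. The groups did not overlap, and Pcx fell 3.74-fold (log2 change -1.90, SE 0.13, limma adjusted p = 1.5e-11). Among all probe sets 14.9% lay wholly lower in these CREB3L3-/- livers. Pck1, the cytosolic enzyme, had 12.58, 12.74, 12.37 and 12.52 in wild-type livers. In CREB3L3-/- livers it had 11.51, 8.36, 10.60 and 11.05. All 4 lay below the wild-type range, replicate 2 far below the others, and the fall was 4.50-fold (log2 change -2.17, SE 0.35, limma adjusted p = 1.3e-05). Pck2, the mitochondrial enzyme, moved the other way. It had 7.13, 5.89, 5.24 and 5.61 in wild-type livers and 7.61, 7.36, 6.99 and 7.91 in CREB3L3-/- livers. Wild-type replicate 1 lay inside the CREB3L3-/- range, and Pck2 rose 2.82-fold (log2 change 1.50, SE 0.28, limma adjusted p = 0.00012).

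The genes that act later fell too. Fbp1 had 11.61, 11.54, 11.47 and 11.72 in wild-type and 9.84, 8.67, 9.57 and 10.01 in CREB3L3-/- livers, a fall of 4.17-fold (log2 change -2.06, SE 0.17, limma adjusted p = 2.2e-10). G6pc, which catalyses the release of glucose, had 11.74, 11.66, 11.15 and 10.83 in wild-type livers and 9.80, 7.11, 9.25 and 10.03 in CREB3L3-/- livers. It fell 4.92-fold (log2 change -2.30, SE 0.39, limma adjusted p = 3.4e-05), and again replicate 2 was lowest. Slc37a4, the transporter that feeds G6pc, had 9.94, 10.21, 10.40 and 10.66 against 8.84, 7.98, 8.15 and 8.87. Its fall was 3.59-fold (log2 change -1.84, SE 0.19, limma adjusted p = 9.3e-09). None of these 3 genes had a CREB3L3-/- liver within the wild-type range, where 14.9% of all probe sets lay wholly lower.

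The sensing genes fell as well. Slc2a2, which encodes GLUT2, had 11.58, 11.75, 11.74 and 11.78 in wild-type livers and 10.42, 9.54, 8.06 and 9.96 in CREB3L3-/- livers. It fell 4.65-fold (log2 change -2.22, SE 0.32, limma adjusted p = 2.5e-06), and here replicate 3 was lowest. Gckr, the partner of glucokinase, had 9.37, 9.33, 9.57 and 9.39 against 8.53, 7.26, 7.75 and 8.14, a fall of 2.82-fold (log2 change -1.49, SE 0.19, limma adjusted p = 4.5e-07). The groups of both genes were apart, where 14.9% of all probe sets lay wholly lower. The coactivator gene Ppargc1a did not pass. Its probe set 10529979 had 8.37, 8.41, 8.10 and 8.11 in wild-type and 7.83, 6.81, 7.46 and 8.18 in CREB3L3-/- livers (log2 difference -0.68, 95% interval -1.37 to 0.02, limma adjusted p = 0.14). Probe set 10529977 was at -0.77 (95% interval -1.52 to -0.03, limma adjusted p = 0.11), and in both probe sets the groups overlapped.

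**Figure D2:**
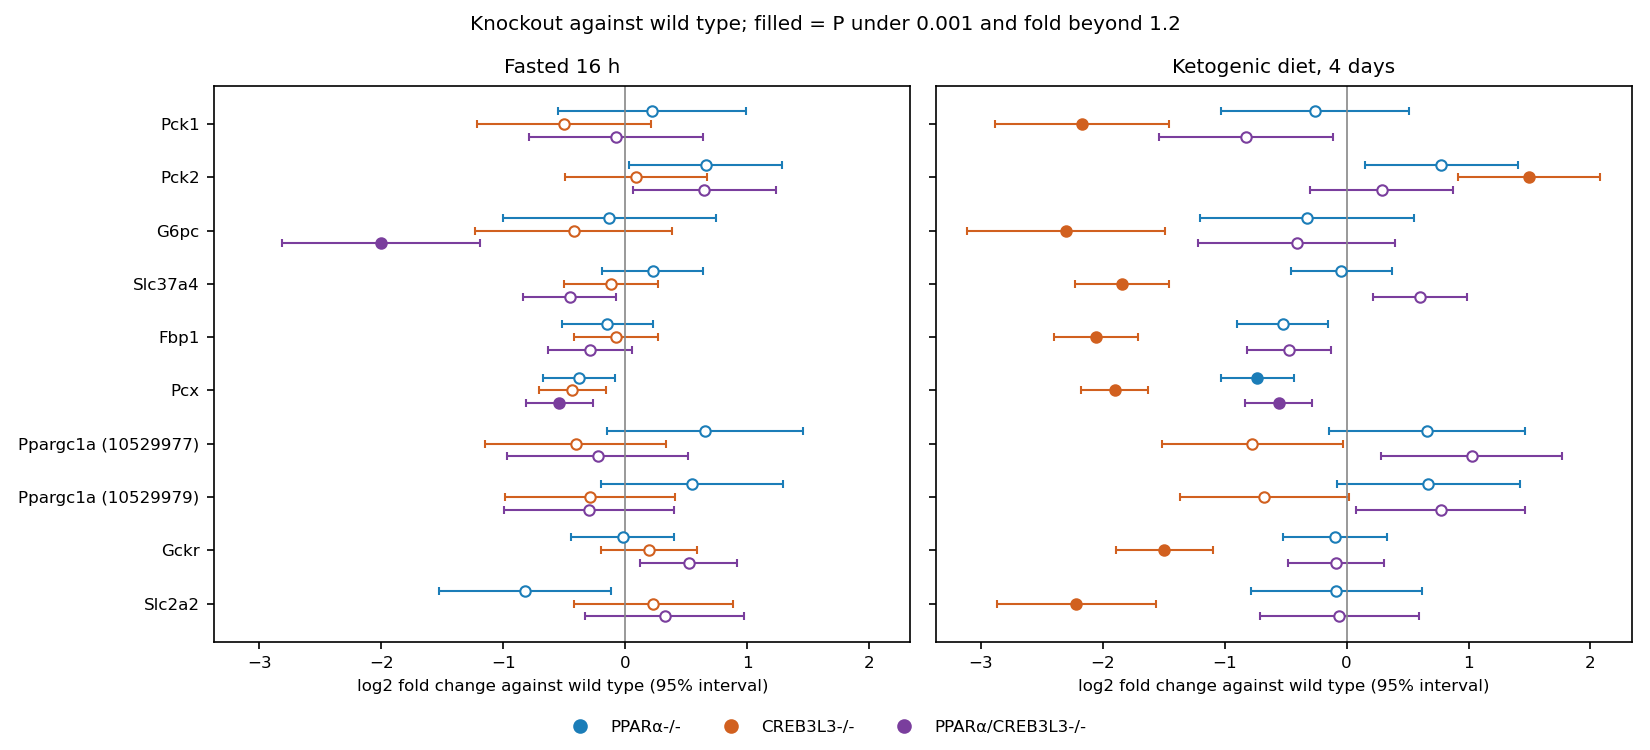
log2 difference from wild-type livers of the same regimen for each member probe set in PPARα-/-, CREB3L3-/- and combined PPARα/CREB3L3-/- livers, fasted and on the ketogenic diet, with bars for the 95% interval and filled points for differences past the threshold. The filled ketogenic CREB3L3-/- points lie between -2.30 and -1.49 for 7 probe sets and at 1.50 for Pck2.

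The 4 CREB3L3-/- livers on the diet differed in degree. The median difference from the wild-type mean, taken over the 8 members other than Pck2 (1 probe set each), was -1.27, -2.25, -2.05 and -1.47 in replicates 1 to 4. Of the 10 probe sets, 7 were lowest in replicate 2 and 3 (Pcx, Slc2a2 and Pck2) in replicate 3. Pck2 rose in these livers, and for it replicate 3 was the liver nearest the wild-type mean (difference 1.02). Without replicate 2 the same comparison still called 8 probe sets, with Pck1 at -1.50 (SE 0.13), G6pc at -1.65 (SE 0.26), Fbp1 at -1.77 and Pck2 at 1.53. The calls held without that liver, and Pck1 and G6pc differed less from wild-type livers. In the combined knockout livers on the diet the same median was -0.12, 0.13, -0.54 and -0.31, and in the PPARα-/- livers it was -0.34, -0.22 and -0.05.

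**Figure D3:**
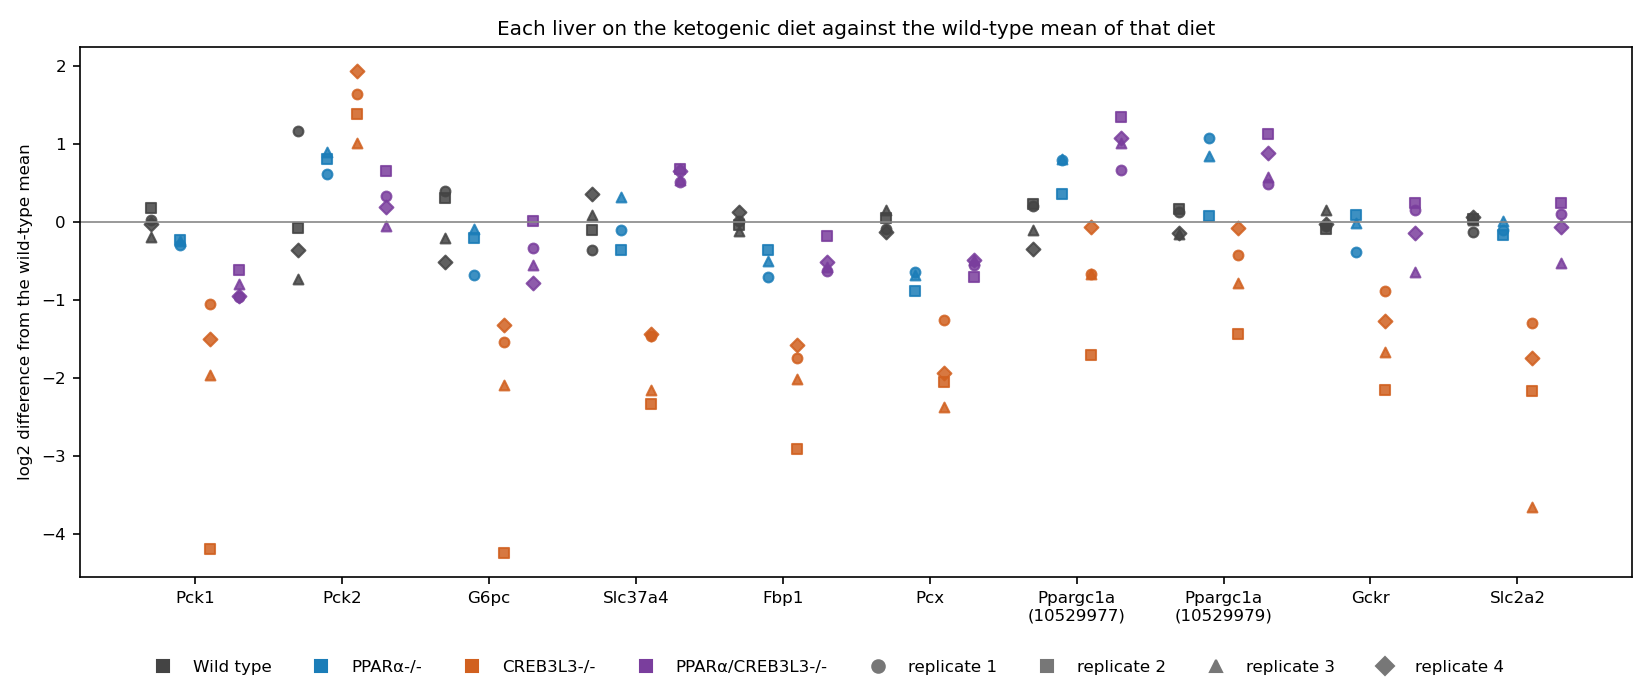
Difference of each liver on the ketogenic diet from the wild-type mean of that diet (log2 scale, vertical axis) for each member, with 1 point per liver, coloured by genotype and shaped by replicate number. All 4 CREB3L3-/- livers lie below 0 for every probe set but Pck2 and differ among themselves in distance from it, replicate 2 reaching 8.36 for Pck1 where the wild-type mean was 12.55.

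Markers of other cell types moved in the same livers. The summed level of 8 macrophage markers was 12.22 to 12.51 in CREB3L3-/- livers on the diet against 11.26 to 11.82 in wild-type livers, with 4 of the 8 called higher and none lower. Of 8 stellate cell markers 6 were higher and none lower (summed level 11.57 to 11.98 against 11.33 to 11.48), and of 5 cholangiocyte markers 2 were higher and none lower (8.28 to 9.07 against 7.06 to 7.40). All 6 cycling markers were higher, their summed level being 10.43 to 11.63 against 6.28 to 7.86, with a median change of 4.05. The neutrophil markers set replicate 3 apart, the liver lowest for Pcx and Slc2a2, at a summed level of 10.04 against 6.74 to 7.09 in the other 3 and 6.06 to 7.28 in wild-type livers, and 1 of the 5 was called higher. Of 8 T, NK and B cell markers 1 was lower and none higher (median -0.41), and of 6 sinusoidal endothelium markers 1 was higher and 1 lower (median -0.18). Of the 9 hepatocyte markers 6 were lower, with a median change of -0.50. They moved unevenly, from Trf (means of 13.12 in wild-type and 13.10 in CREB3L3-/- livers) to Asgr1 (10.55 and 8.86). The list also holds Apoa1, which the paper names as a target of CREB3L3. The mean of these markers is therefore not a measure of hepatocyte amount alone. With the mean of the hepatocyte markers taken away from every array, a choice made after seeing the data, the same 8 probe sets were called. Pck1 was then at -1.53, Fbp1 at -1.42, Gckr at -0.86 and Pck2 at 2.14. In wild-type livers on the diet 6 of 8 T, NK and B cell, 4 of 5 cholangiocyte, 3 of 5 neutrophil and 3 of 6 cycling markers had means below the array median. The size of changes in these markers is uncertain. The part of the other cell types in these results was not tested.

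The combined knockout asked whether the loss of CREB3L3 acts alike when PPARα is absent too. On the ketogenic diet it did not for 7 of the 10 probe sets, whose interaction passed the threshold, where 15.9% of all probe sets passed. The interaction is the change by loss of CREB3L3 without PPARα minus that with PPARα. It was 2.49 for Slc37a4 (SE 0.28, limma adjusted p = 1.3e-07), 2.11 for Fbp1 (SE 0.25), 2.08 for Pcx (SE 0.20) and 1.50 for Gckr (SE 0.28). It was 2.24 for Slc2a2 (SE 0.47), 2.21 for G6pc (SE 0.58, limma adjusted p = 0.005) and -1.99 for Pck2 (SE 0.42, limma adjusted p = 0.00062). The call for G6pc was lost under 13 of 43 alternatives, among them the ketogenic arrays alone and several single livers left out. Pck1 was at 1.60 (SE 0.51, limma adjusted p = 0.021), short of the threshold, and without CREB3L3-/- replicate 2 at 0.93 (SE 0.18), past it. The Ppargc1a probe sets were at 1.14 and 0.78 (limma adjusted p = 0.13 and 0.29). The markers interacted too, with 7 of the 9 hepatocyte markers called above 0 (median 0.61), and all 6 cycling (median -4.06), 4 of 8 stellate cell and 2 of 8 macrophage markers below 0. With the hepatocyte marker mean taken away 4 interactions remained called, those of Pck2, Slc37a4, Fbp1 and Pcx.

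Between the combined knockout and PPARα-/- livers on the diet no member passed in limma, where 2.42% of all probe sets did, and 1 had an unadjusted P under 0.05 (Slc37a4). The differences were small for Slc2a2 (0.02, 95% interval -0.68 to 0.73), Gckr (0.01, -0.42 to 0.43), Fbp1 (0.05, -0.32 to 0.43) and G6pc (-0.08, -0.96 to 0.79), although these intervals do not show equal levels. Slc37a4 had 10.21, 9.94 and 10.63 in PPARα-/- livers and 10.82, 10.99, 10.84 and 10.96 in combined knockout livers. These groups were apart (0.64, SE 0.20, limma adjusted p = 0.083). Pck1 had 12.25, 12.32 and 12.31 against 11.59, 11.94, 11.76 and 11.61, also apart (-0.57, SE 0.38, limma adjusted p = 0.53). The spread of Pck1 in CREB3L3-/- livers on the diet (SD 1.40) enters this pooled SE, although those livers are not compared here. Pck1 was called under 2 of 44 alternatives, with a lowest limma adjusted p of 0.017, so a change in Pck1 is not excluded. Among all probe sets 5.67% lay wholly higher and 6.98% wholly lower. Against CREB3L3-/- livers, in contrast, all 10 probe sets passed, 9 higher and Pck2 lower in the combined knockout, where 20.4% of all probe sets passed. The call for Pck1 was lost under 9 of 44 alternatives, among them the ketogenic arrays alone and any combined knockout liver left out. Slc37a4 was 5.44-fold higher in the combined knockout, with no overlap between groups for any of the 10, where 14.2% of all probe sets lay wholly higher and 13.9% wholly lower. Slc2a2 was at 11.81, 11.96, 11.18 and 11.65, and Ppargc1a (10529979) at 8.73, 9.38, 8.83 and 9.14. Markers of other cell types were lower in the combined knockout than in CREB3L3-/- livers, with 7 of 8 for macrophages (median -1.77), 6 of 8 for stellate cells (-1.46), 4 of 6 for sinusoidal endothelium (-0.59) and all 6 for cycling cells (-4.93), and 3 of the 9 hepatocyte markers were higher (0.16). Their part in these differences was not tested. Both comparisons share the combined knockout arrays. The second also shares the 4 CREB3L3-/- livers with their comparison to wild-type livers and with the interaction, so low values in those livers enter all of these, and a fall against wild-type livers and a higher level in the combined knockout are not independent of each other.

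**Figure D4:**
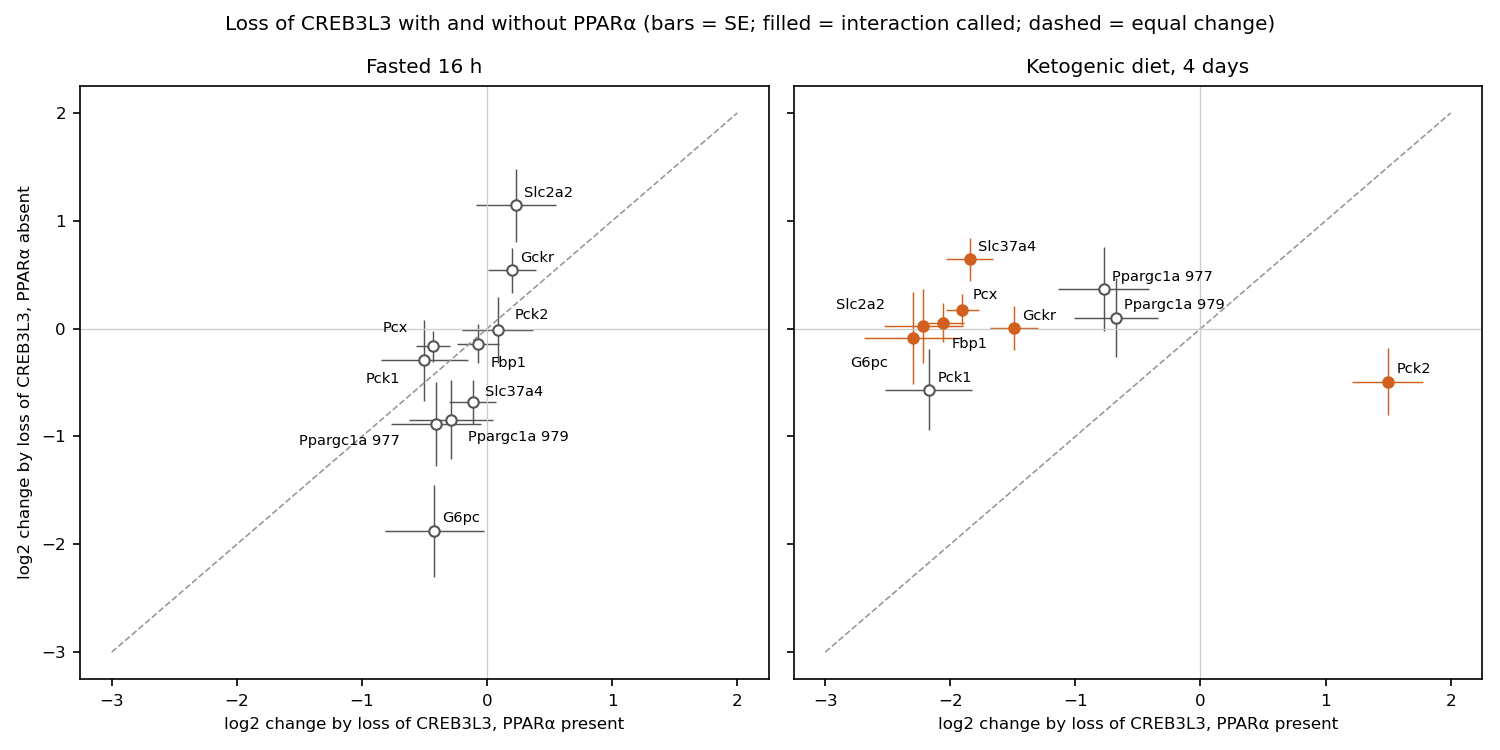
Change by loss of CREB3L3 with PPARα present (horizontal axis, log2) against the change with PPARα absent (vertical axis, log2), fasted and on the ketogenic diet, with bars for the standard error, filled points for interactions past the threshold and a dashed line for equal change. On the diet the filled points other than Pck2 lie between -2.30 and -1.49 on the horizontal axis and within 0.64 of 0 on the vertical axis, and in the fasted state G6pc lies lowest at -1.87.

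Loss of PPARα on the ketogenic diet gave 1 call among the members, Pcx, where 10.9% of all probe sets were called. Pcx had 10.27, 10.03 and 10.23 in PPARα-/- livers, all below the wild-type range (log2 change -0.73, SE 0.14, limma adjusted p = 0.00048). Among all probe sets 11.2% lay wholly lower there. The combined knockout likewise gave Pcx alone, where 14.0% of all probe sets were called, with 10.36, 10.20, 10.43 and 10.43 (log2 change -0.56, SE 0.13, limma adjusted p = 0.0027). Both changes missed P of 0.001 in a fit to the ketogenic arrays alone, with limma adjusted p = 0.014 and 0.034, where 8.58% and 11.1% of all probe sets were called. With the hepatocyte marker mean taken away neither was called. Markers of other cell types were lower as well. In PPARα-/- livers these were 5 of 8 macrophage (median -1.27), 4 of 8 T, NK and B cell, 3 of 8 stellate cell and 6 of 9 hepatocyte markers (median -0.37), with none higher. All 8 T, NK and B cell markers had means below the array median in these livers. In the combined knockout 5 of 8 macrophage markers were lower and 1 higher (median -1.24), 4 of 6 sinusoidal endothelium markers lower and 1 higher, and 3 of 8 stellate cell and 4 of 9 hepatocyte markers lower (median -0.29 for hepatocytes). The macrophage summed level was 10.28 to 10.69 in PPARα-/- and 10.37 to 10.80 in combined knockout livers. The part of the cell types other than hepatocytes was not tested, and the hepatocyte marker mean does not measure hepatocyte amount alone.

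Other members differed from wild-type livers on the diet without passing. Fbp1 had 10.87, 11.22 and 11.08 in PPARα-/- livers and 10.96, 11.41, 11.01 and 11.08 in combined knockout livers, all below the wild-type range. Its differences were -0.52 and -0.47 (limma adjusted p = 0.048 and 0.045). Slc37a4 in the combined knockout was above every wild-type liver (0.60, SE 0.19, limma adjusted p = 0.021). Ppargc1a (10529977) had 6.58, 7.25, 6.93 and 6.99 in the combined knockout against 6.12, 6.15, 5.80 and 5.56 in wild-type livers (1.03, SE 0.36, limma adjusted p = 0.042), and its probe set 10529979 differed by 0.77 (SE 0.34, limma adjusted p = 0.11), both apart. Among all probe sets 11.2% lay wholly lower in PPARα-/- livers. In the combined knockout 11.2% lay wholly higher and 10.4% wholly lower. Pck1 was lower there by a log2 difference of -0.83 (limma adjusted p = 0.098) with no overlap. Without CREB3L3-/- replicate 2, whose spread enters the pooled error, that difference was called (limma adjusted p = 9.3e-06), as was Fbp1 in both genotypes.

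In the fasted state the loss of either factor alone gave no call among the members, where 4.00% of all probe sets were called for PPARα-/- and 1.39% for CREB3L3-/-. An unadjusted limma P under 0.05 was reached by 3 of the 10 probe sets for PPARα-/- (Pck2, Pcx and Slc2a2) and by 1 for CREB3L3-/- (Pcx). Values per liver were nonetheless apart for some genes, where 3.25% of all probe sets lay wholly lower in CREB3L3-/- livers. Pck1 had 12.51, 12.53, 12.59 and 12.45 in wild-type livers and 12.10, 11.85, 12.10 and 12.03 in CREB3L3-/- livers. The difference was -0.50 (SE 0.35, limma adjusted p = 0.63), and every CREB3L3-/- liver was below every wild-type liver. In a fit to the fasted arrays alone its SE was 0.07 and it passed (limma adjusted p = 0.0022), as did Pcx at -0.43 (SE 0.06, limma adjusted p = 0.0027), where 1.44% of all probe sets did. G6pc had 11.65, 11.78, 11.73 and 11.74 against 11.35, 11.29, 11.01 and 11.56, also apart, with a difference of -0.42 that passed in neither fit (limma adjusted p = 0.76 and 0.46). The paper reports both Pck1 and G6pc as significantly lower in fasted CREB3L3-/- livers. Its calls used an intensity-based moderated t-statistic (IBMT) at P under 0.001 on remapped probe sets, and so differ from those here.

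Slc2a2 was uneven among the fasted PPARα-/- livers. It had 9.68, 10.95 and 9.74 there against 10.62, 10.97, 11.02 and 11.17 in wild-type livers (log2 difference -0.82, SE 0.34, limma adjusted p = 0.18). Pck2 had 5.71, 5.44 and 5.63 against 4.74, 5.17, 5.23 and 4.59, with no overlap (0.66, SE 0.31, limma adjusted p = 0.24). Pck2 lay above every wild-type liver in all 3 PPARα-/- livers, and Slc2a2 below every one in 2 of the 3. Both were short of the threshold. The wild-type Pck2 values lay in the range of the Creb3l3 probe set in livers lacking CREB3L3 (4.29 to 5.36), so the size of the Pck2 difference is uncertain. Among all probe sets 8.34% lay wholly lower in fasted PPARα-/- livers. The share wholly higher is not given here, so how common the separation seen for Pck2 is cannot be told.

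The combined knockout changed 2 members in the fasted state, both lower, where 2.79% of all probe sets were lower and 4.19% higher. G6pc had 9.16, 9.85, 9.76 and 10.13, all below the lowest fasted wild-type liver at 11.65, and fell 4.01-fold (SE 0.39 on the log2 scale, limma adjusted p = 0.00093). Among all probe sets 7.75% lay wholly lower. G6pc was also lower than in PPARα-/- livers, which had 12.10, 10.90 and 11.79 (-1.87, SE 0.43, limma adjusted p = 0.02), and than in CREB3L3-/- livers (-1.58, SE 0.39, limma adjusted p = 0.011). In those comparisons 1.67% and 5.28% of all probe sets were called. Slc37a4, whose product supplies glucose-6-phosphatase, had 9.89, 10.06, 9.75 and 9.91 against 10.03, 10.67, 10.64 and 10.11 in wild-type livers (-0.46, SE 0.19, limma adjusted p = 0.12). Pck1 was at 12.53, 12.28, 12.39 and 12.57, overlapping wild-type livers, with a log2 difference of -0.08 (95% interval -0.79 to 0.64). In limma over all arrays no member interaction passed in the fasted state, where 0.762% of all probe sets did, and 1 of the 10, that of G6pc, had an unadjusted P under 0.05. The interaction of G6pc passed in the fit to the fasted arrays alone (limma adjusted p = 0.1), where 0.852% of all probe sets did.

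Pcx was the other called gene in the fasted combined knockout, with 10.25, 10.20, 10.13 and 10.35 against 10.85, 10.79, 10.81 and 10.64 in wild-type livers (log2 change -0.54, SE 0.13, limma adjusted p = 0.0072). Its probe set lay below wild-type livers of the same regimen, with no overlap, in all 6 knockout groups, and 4 of these differences were called. Among all probe sets, 8.34%, 3.25% and 7.75% lay wholly lower in fasted PPARα-/-, CREB3L3-/- and combined knockout livers, and 11.2%, 14.9% and 10.4% on the diet. Gckr went up without passing, at 10.02, 10.10, 10.07 and 10.19 against 9.36, 9.70, 9.69 and 9.56 (0.52, SE 0.19, limma adjusted p = 0.08). It passed in the fit to the fasted arrays (limma adjusted p = 0.0039), where 7.11% of all probe sets did.

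Between regimens the wild-type livers gave no call among the members in limma, where 4.25% of all probe sets were called, and 3 had an unadjusted P under 0.05 (Pck2, Slc2a2 and Fbp1). Pck1 had means of 12.52 ± 0.06 (SD, n = 4) fasted and 12.55 ± 0.15 on the diet, and the regimens did not overlap for Pck2 and Slc2a2 (higher on the diet) and Fbp1 (lower). Among all probe sets 7.22% lay wholly higher and 6.00% wholly lower. Pck2 was higher on the diet by 1.03 (SE 0.28, limma adjusted p = 0.025) and Slc2a2 by 0.77 (SE 0.32, limma adjusted p = 0.16), whereas Fbp1 differed by -0.37 (SE 0.17, limma adjusted p = 0.22). In PPARα-/- livers 2 probe sets were called, where 10.2% of all probe sets were. Slc2a2 rose from 9.68, 10.95 and 9.74 to 11.61, 11.54 and 11.73 (1.50, SE 0.37, limma adjusted p = 0.0044), and Fbp1 fell from 11.92, 11.75 and 11.73 to 10.87, 11.22 and 11.08 (-0.74, SE 0.19, limma adjusted p = 0.0076).

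The regimens set CREB3L3-/- livers further apart, with 8 calls where 25.4% of all probe sets were called. Pck2 rose 5.45-fold from fasted livers at 4.94 to 5.13, and 7 fell, from 2.52-fold for Pcx to 5.11-fold for Fbp1. Fasted Pck2 values of CREB3L3-/- and wild-type livers lay in the range of the Creb3l3 probe set in livers lacking CREB3L3 (4.29 to 5.36). The size of Pck2 differences between regimens is therefore uncertain in both genotypes. The effect of CREB3L3 loss differed between regimens for 5 probe sets, where 13.8% of all probe sets passed. These were Slc2a2 (-2.45, SE 0.45), Fbp1 (-1.99, SE 0.24), Slc37a4 (-1.73, SE 0.26), Gckr (-1.69, SE 0.27) and Pcx (-1.47, SE 0.19). Pck1 was at -1.67 (limma adjusted p = 0.014), G6pc at -1.88 (limma adjusted p = 0.015) and Pck2, in the other direction, at 1.41 (SE 0.40, limma adjusted p = 0.011), all short of the threshold. For PPARα loss no member differed between regimens, where 4.83% of all probe sets did, and 0 had an unadjusted limma P under 0.05.

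The combined knockout livers changed otherwise between regimens, with 3 calls where 14.5% of all probe sets were called. Slc37a4 was higher on the diet, with a mean of 10.90 against 9.90 in the fasted state (SE of the difference 0.19, limma adjusted p = 0.0002), as was Ppargc1a in probe set 10529977 (1.40, SE 0.36, limma adjusted p = 0.005) but not past the threshold in 10529979 (1.12, SE 0.34, limma adjusted p = 0.016), and Gckr was lower (-0.77, SE 0.19, limma adjusted p = 0.0034). G6pc was above every fasted combined knockout liver on the diet, at 11.01, 11.37, 10.80 and 10.57, without passing (1.21, SE 0.39, limma adjusted p = 0.025). The effect of the combined loss differed between regimens for Slc37a4 alone (1.05, SE 0.26, limma adjusted p = 0.0071), where 8.26% of all probe sets passed. G6pc was at 1.59 (SE 0.56, limma adjusted p = 0.06).

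The rest of the pathway was read from 3 lists. These were the other enzymes and transporters of glycolysis and gluconeogenesis (32 of 41 genes matched), glycogen enzymes (14 of 16) and regulators of glucose production (27 of 28). In CREB3L3-/- livers on the diet, 9 of the 32 enzymes and transporters were higher and 12 lower, where 12.8% of all probe sets were higher and 8.56% lower, with a median change of -0.36 against -0.06 over all probe sets. Fbp2, the fructose-1,6-bisphosphatase of muscle, rose by 3.33 (SE 0.29, limma adjusted p = 6.8e-10) while Fbp1 fell. Its wild-type mean, 3.88, was below the lowest array median of 4.22, so the size of this change is uncertain. Slc2a1, which encodes GLUT1, rose by 1.93 (SE 0.17) and Hk2, hexokinase 2, rose 2.30-fold. Mpc1, part of the mitochondrial pyruvate carrier upstream of Pcx, fell by 1.39 on the log2 scale (SE 0.07, limma adjusted p = 1.1e-13). The urate and sugar transporter gene Slc2a9 fell by 2.15 (SE 0.12), and Slc25a13, the aspartate-glutamate carrier, fell by 1.40 (SE 0.11).

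Of the 14 glycogen genes 2 were higher and 6 lower in these livers (12.8% and 8.56% of all probe sets), with a median of -0.31. Gys2, the glycogen synthase of liver, fell by 3.53 on the log2 scale (SE 0.25, limma adjusted p = 2.1e-11). Pygl, liver glycogen phosphorylase, fell by 1.15 (SE 0.10) and the lysosomal glucosidase gene Gaa fell by 0.45 (SE 0.07). The phosphoglucomutase gene Pgm2 rose by 1.33 (SE 0.16) and Gyg, glycogenin, by 0.79 (SE 0.13). Of the 27 regulators 2 were higher and 12 lower, beside the same 12.8% and 8.56%, with a median of -0.43. Gcgr, the glucagon receptor, fell by 1.97 (SE 0.17, limma adjusted p = 5.8e-10), Klf15 fell by 2.06 (SE 0.20) and the glucocorticoid receptor gene Nr3c1 fell by 0.69 (SE 0.06). Igfbp1, an insulin-repressed secreted protein, rose by 2.02 (SE 0.39, limma adjusted p = 0.00016) and Kat2a by 0.40 (SE 0.08).

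**Figure D5:**
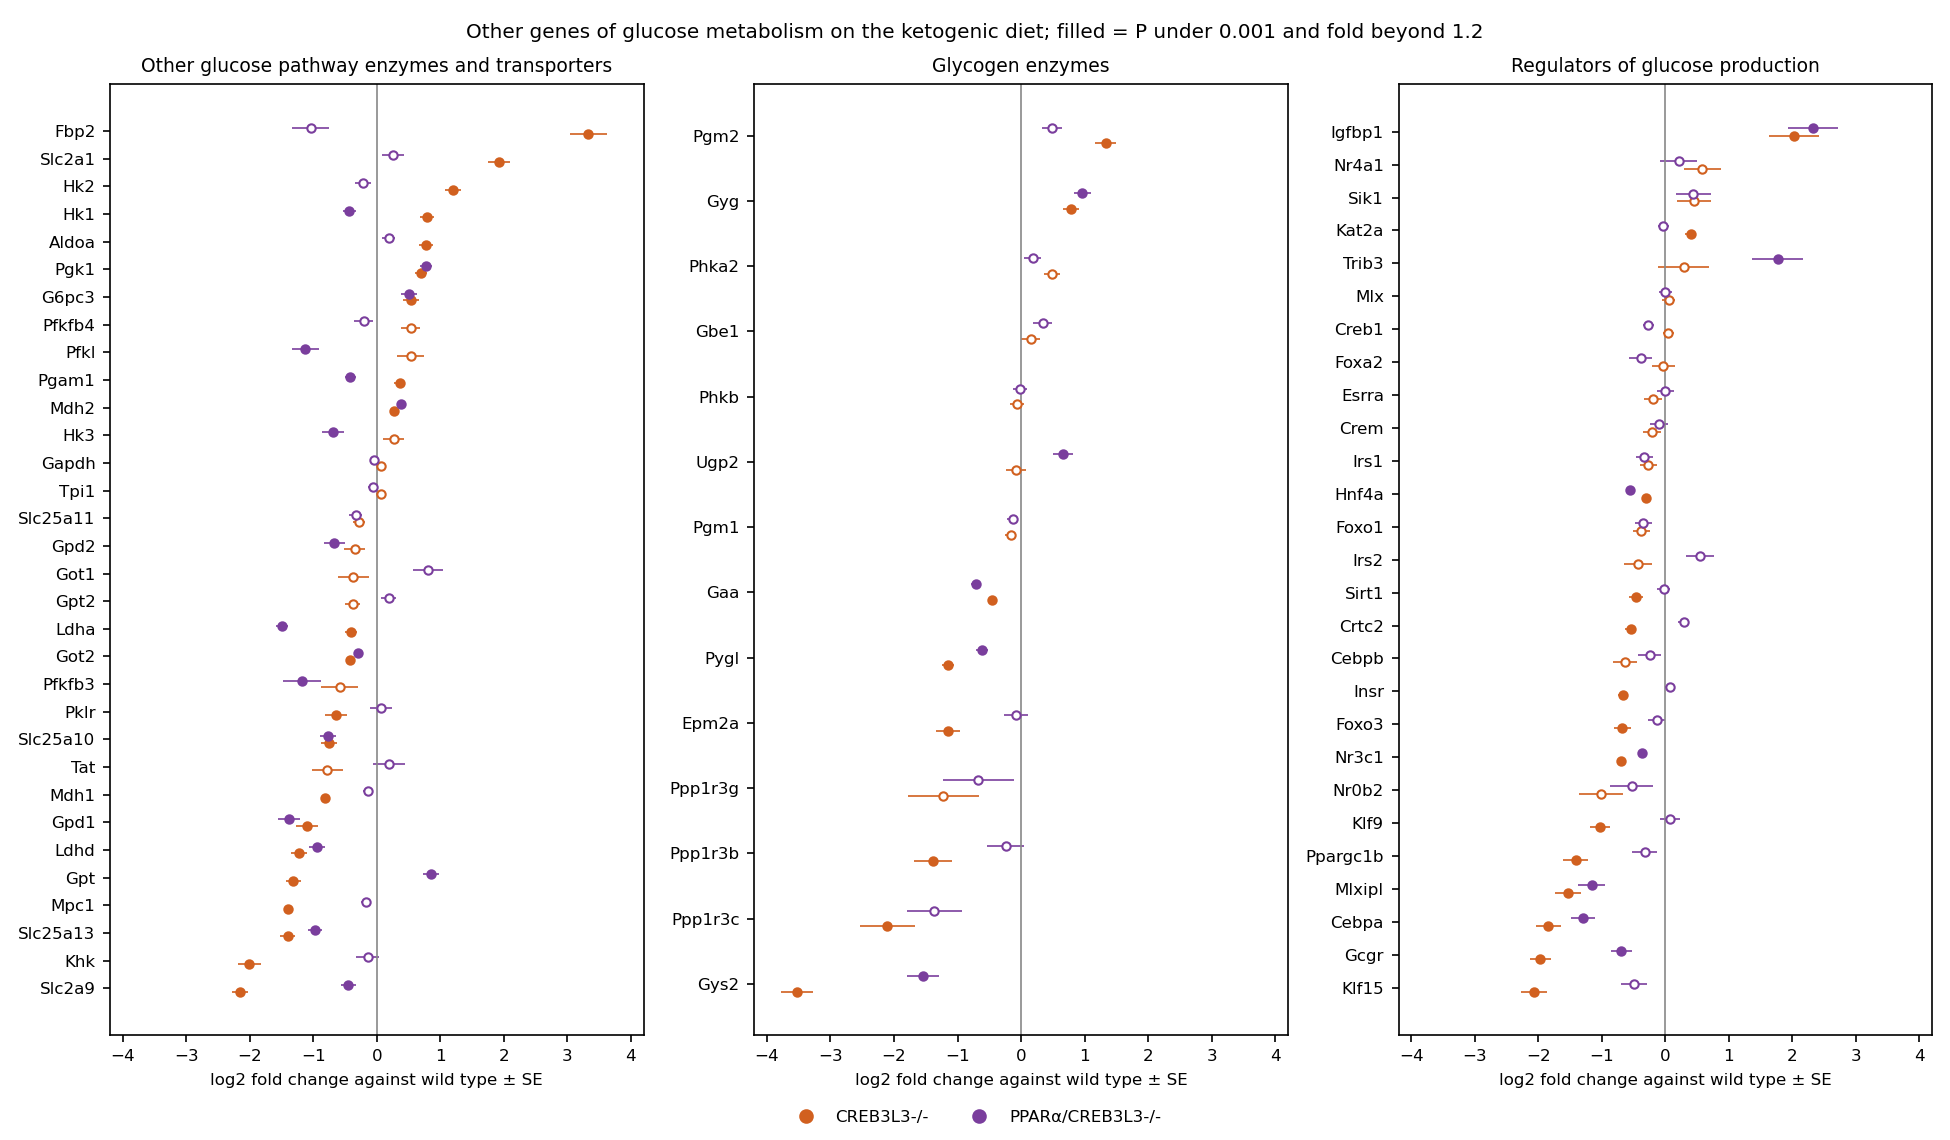
log2 difference of CREB3L3-/- and of combined PPARα/CREB3L3-/- livers from wild-type livers on the ketogenic diet (horizontal axis) for the matched genes of the 3 pathway lists, 1 list per panel, with bars for the standard error and filled points for differences past the threshold. Among the CREB3L3-/- points Gys2 lies lowest at -3.53 and Fbp2, whose wild-type mean was below every array median, highest at 3.33.

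The same lists were read in the other ketogenic knockouts. Gys2 fell by 1.52 on the log2 scale in PPARα-/- livers (SE 0.27) and fell by 1.55 in combined knockout livers (SE 0.25), and Igfbp1 rose by 2.13 and 2.32. In PPARα-/- livers 8 of the 32 enzymes and transporters were higher and 11 lower, where 10.9% of all probe sets were called in either direction. Those higher included Mdh2, mitochondrial malate dehydrogenase (0.70), the glucose-6-phosphatase relative G6pc3 (0.86) and Pgk1 (0.68). Of the 14 glycogen genes 2 were higher and 3 lower, and of the 27 regulators 3 were higher and 4 lower. Ldha, lactate dehydrogenase A, fell by 1.08 there and fell by 1.50 in the combined knockout, where 4 of the 32 were higher and 13 lower and 14.0% of all probe sets were called. There 2 of the 14 glycogen genes were higher and 3 lower, and 2 of the 27 regulators were higher and 5 lower. Pgk1 (0.78) and the alanine transaminase gene Gpt (0.86) rose in the combined knockout, and the carrier genes Slc25a10 and Slc25a13 (-1.02 and -0.85) fell in PPARα-/- livers. Among regulators Trib3, a pseudokinase gene, rose by 2.36 in PPARα-/- and by 1.77 in combined knockout livers. Hnf4a, a hepatocyte transcription factor gene, fell by 0.46 and fell by 0.56, and Cebpa fell by 1.30 in the combined knockout.

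In the fasted state the loss of CREB3L3 moved 5 of the 32 enzymes and transporters, 1 higher and 4 lower, where 1.39% of all probe sets were called. It gave no limma call among the 14 glycogen genes and the 27 regulators, of which 1 (Gbe1) and 2 (Creb1 and Foxa2) had an unadjusted P under 0.05. Pklr, liver pyruvate kinase, rose by 0.73 (SE 0.17, limma adjusted p = 0.026), and Ldha fell by 0.69 (SE 0.09), Slc25a10 fell by 0.51 and Mpc1 fell by 0.48. Loss of PPARα moved 3 of the 32 higher and 7 lower, where 4.00% of all probe sets were called. Of the 14 glycogen genes 3 were higher and 1 lower, and of the 27 regulators 3 were higher and 1 lower. The dicarboxylate carrier gene Slc25a10 fell by 1.32 (SE 0.14) and Gpd2, mitochondrial glycerol-3-phosphate dehydrogenase, fell by 1.22 (SE 0.18). Igfbp1 rose by 2.29 and Sik1, a kinase gene induced by glucagon, by 1.67 (SE 0.29). In the combined knockout 2 of the 32 were higher and 9 lower, where 4.19% of all probe sets were higher and 2.79% lower, with Ldha at -1.23 (SE 0.09, limma adjusted p = 5.8e-10), Slc25a13 at -1.19 and Pklr at 0.89. Of the 14 glycogen genes 2 were higher and 2 lower, and of the 27 regulators 4 were higher and 3 lower. Gys2 fell by 1.28 and the branching enzyme gene Gbe1 rose by 1.27. The regulators Nr4a1 (1.94), Igfbp1 (2.20) and Trib3 (2.20) rose, and Klf15 fell by 0.87.

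The genes with the pattern most like each member were found by Pearson correlation over the 8 group means, among 5058 probe sets whose group means ranged over more than 1. They were Tlcd1 for Pck1 (r = 0.986), Srprb for Pck2 (0.997), Calcoco1 for G6pc (0.962), Trpt1 for Slc37a4 (0.986) and Mtarc1 for Fbp1 (0.997). For Pcx the leading gene was Hibch (0.991), for Ppargc1a Cabcoco1 (0.956), for Gckr C1s1 (0.987) and for Slc2a2 Per2 (0.955). With so few points and a single low group these values describe shape only.

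Within groups, after each group mean was taken away from the 30 arrays, Pck1 went most with Mat1a (r = 0.956) and Tat (0.920), G6pc with Tat (0.811) and Cfi (0.800), and Fbp1 with Amdhd1 (0.881). These values were lower without 1 liver. Without CREB3L3-/- replicate 2 on the diet these were 0.744, 0.612, 0.394, 0.496 and 0.668 over 29 arrays. Among the members, Pck1 and G6pc correlated at 0.823, and at 0.351 without that liver. Pck1 and Fbp1 correlated at 0.880, and at 0.501 without it. Others moved little without it. Pck2 went with Armcx3 (0.805, and 0.810 without it) and Aldh1l2 (0.804 and 0.808), Pcx with Bckdha (0.904 and 0.923), Slc2a2 with Saa4 (0.894 and 0.901) and Slc37a4 with Tdo2 (0.827 and 0.798). The leading gene was Slc17a3 for Gckr (0.867 and 0.835) and Rogdi for Ppargc1a (0.737 and 0.705). The arrays of a group share genotype and diet, and livers low in several genes at once add to every such value. The 2 Ppargc1a probe sets followed each other at 0.973 over the arrays and 0.954 after the group means were taken away.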

How the data were processed

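Livers were profiled on Affymetrix Mouse Gene 1.1 ST arrays. The authors deposited log2 intensities normalised by RMA (AffyPLM, version not given in the sources used here) for 35556 probe sets in 30 arrays. The methods name an Entrez-based remapped chip definition, whereas the row identifiers are those of the manufacturer. Genes were named through the annotation of the platform, which gave 1 symbol for 21218 probe sets, several for 1881 and none for 12457.

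A mean per group was fitted across all probe sets and arrays with limma 3.58.1 in R 4.3.3 (eBayes with an intensity trend, 22 residual and 3.47 prior degrees of freedom). Calls needed P under 0.001 and a fold beyond 1.2, the thresholds of the study, and p-values were adjusted by Benjamini-Hochberg over 35556 probe sets. The study took its P from IBMT on remapped probe sets, so the same thresholds need not give the same calls. The fit was tested on simulated data, which says nothing of the spread in these livers. The fit takes 1 variance per probe set for all groups. Pck1 departed from this, with an SD of 1.40 in ketogenic CREB3L3-/- livers against a median group SD of 0.12. So did G6pc (1.33 against 0.37), Slc2a2 (1.02 and 0.27), Fbp1 (0.60 and 0.12), Pcx (0.47 and 0.10), Gckr (0.54 and 0.21) and Slc37a4 (0.46 and 0.29). Pck2 and Ppargc1a had their largest SD in other groups. For the former genes the pooled SE and p-value can be too small where those livers are compared, and too large elsewhere. Each liver is 1 array, so the number of livers limits the precision.

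The members and lists were chosen with earlier results of these data known. Members are all named. From the lists, up to 3 called genes per direction with the lowest P were named, and like genes were taken as the highest correlations. Replicate numbers did not pair livers (correlations of -0.111 to 0.121 between same-numbered livers of a regimen). Coordinates and promoters came from RefSeq on GRCm38.p6. Alternatives covered thresholds, arrays in the fit, variance models, scaling, filters and each liver left out.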

Additional observations from a re-analysis of the deposited data

Results flagged for a closer look

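The effect of CREB3L3 loss differed on the ketogenic diet between livers with and without PPARα for 7 members, by the interaction term of the limma fit. The differences were -1.99 for Pck2, 2.21 for G6pc, 2.49 for Slc37a4, 2.11 for Fbp1, 2.08 for Pcx, 1.50 for Gckr and 2.24 for Slc2a2 on the log2 scale. That of G6pc was not called under 13 of 43 alternatives, so it depends on the livers in the fit. The effect of CREB3L3 loss on the diet differed from that in the fasted state for Slc37a4 (-1.73), Fbp1 (-1.99), Pcx (-1.47), Gckr (-1.69) and Slc2a2 (-2.45). The effect of the combined loss differed between regimens for Slc37a4 (1.05).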

How the results depend on the processing

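No member result reversed. Of 50 member differences called, 26 passed under every alternative and with every liver left out in turn. In ketogenic CREB3L3-/- against wild-type livers 8 probe sets were called with each liver left out, and 5 when only those arrays were fitted.

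Counts of called members that moved by over 1.5 times were these. At an adjusted p under 0.05, ketogenic PPARα-/- gave 2 (from 1), the ketogenic combined knockout 4 (from 1), the regimens in wild-type 1 (from 0) and in the combined knockout 6 (from 3), and the CREB3L3 effect between regimens 8 (from 5). With a fold beyond 2, the fasted combined knockout gave 1 (from 2), ketogenic PPARα-/- and the ketogenic combined knockout 0, and the regimens 1 each in PPARα-/- (from 2) and the combined knockout (from 3). With the arrays of 1 regimen, ketogenic PPARα-/- and the combined knockout gave 0, and the fasted comparisons gave 1 for PPARα-/-, 2 for CREB3L3-/-, 4 for the combined knockout, 4 and 2 for it against PPARα-/- and CREB3L3-/-, and 1 for the interaction. With only the 2 groups compared, the fasted comparisons gave 1 for PPARα-/-, 2 for CREB3L3-/-, and 2 and 3 for the combined knockout against PPARα-/- and CREB3L3-/-. The ketogenic ones gave 2 for PPARα-/-, 5 for CREB3L3-/-, 5 for the combined knockout and 1 for it against PPARα-/-, and the regimens gave 2 in wild-type, 5 in CREB3L3-/- and 5 in the combined knockout. Without an intensity trend the regimens in PPARα-/- gave 1. Array weights gave 1 for fasted CREB3L3-/- and 2 for the fasted combined knockout against PPARα-/-. Median centring, repeated quantile normalization and the probe sets with 1 symbol each gave 1 between regimens in wild-type. With the hepatocyte marker mean taken away, added after seeing the data, fasted PPARα-/- gave 1, the fasted combined knockout against PPARα-/- 2, the ketogenic combined knockout 2, the regimens 1 in wild-type and 6 in the combined knockout, the ketogenic interaction 4 and the combined effect between regimens 2. Except for fits to fewer arrays and other thresholds, the cause was not tested.

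With 1 liver left out the counts ran from 0 to 1 for fasted PPARα-/-, fasted CREB3L3-/-, the fasted interaction, the fasted combined knockout against CREB3L3-/-, the ketogenic combined knockout against PPARα-/-, and the regimens in wild-type. They ran from 1 to 2 for the fasted combined knockout and ketogenic PPARα-/-, from 0 to 2 for the fasted combined knockout against PPARα-/-, from 0 to 3 for the ketogenic combined knockout, the regimens in PPARα-/- and the combined effect between regimens, and from 1 to 6 for the regimens in the combined knockout. Leaving out CREB3L3-/- replicate 2 on the diet gave 3 for the ketogenic combined knockout, 6 for the regimens in the combined knockout and 1 for the fasted interaction, that of G6pc. The ketogenic combined knockout gave 0 without wild-type replicate 2 or 3 or its own replicate 2, and the regimens in PPARα-/- gave 0 without replicate 1 or 3 of either regimen. The fasted combined knockout gave 1 without replicate 1, 2 or 3 of either genotype. Against PPARα-/- it gave 0 without PPARα-/- replicate 1 or 3 or its own replicate 1, and against CREB3L3-/- 0 without CREB3L3-/- replicate 1, 2 or 4 or its own replicate 1 or 3. The combined effect between regimens gave 0 without wild-type replicate 1 or 2 on the diet or 2 or 3 fasted, or combined knockout replicate 2 or 4 on the diet or 1 or 3 fasted.

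Replicate numbers do not pair livers. With the replicate block the ketogenic interaction called 6 probe sets (from 7, G6pc at 2.17 with limma adjusted p = 0.0091), and the other counts were equal. Median centring moved the median of all genes by at most 0.081.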
